A study of Mus musculus with 6 samples.

Results

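CpG shores are the flanks of CpG-dense stretches, and 232687 CpG sites of the mouse autosomes made up the set described here, 3.30% of the 7047535 autosomal sites with the coverage required and part of the 20782144 sites listed. The local CpG density of a site was the number of CpGs within 500 bp on each side, the site itself included. A stretch joined sites of density 60 or more over gaps of up to 500 bp and held at least 10 of them. A shore site had a density under 40 and lay within 2000 bp of the nearest stretch edge. Of 442153 such sites, 52.6% had at least 5 reads in each of 3 cell lines and at most 45 reads in DNMT3A2, 40 in DNMT3B1 and 80 in the SETD2 knockout. The knockout table lists only sites with 10 or more reads, so its minimum was 10. The members flanked 10088 of 10569 stretches, which had a median of 78 sites (10 to 570) and a median length of 835 bp (47 to 8005 bp).

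The 3 lines were mouse embryonic stem cells, all of them null for Dnmt1, Dnmt3a and Dnmt3b, so that no endogenous DNA methyltransferase of these families was left. The first line expressed DNMT3A2, the second DNMT3B1, and the third expressed DNMT3B1 and also lacked Setd2. Whole-genome bisulfite sequencing gave 1 table of counts per line, with 200364080, 188661576 and 200947834 reads over all listed sites. The amount of each enzyme, the promoter that drove it and the number of clones were not given in the sources used here, and cells were grown on feeder cells or on gelatine. With 1 library per line there was no replicate check between lines and no p-value. Intervals below are 95% intervals for counting error only, reads at neighbouring CpGs come from the same molecules, and values of single autosomes are given as a measure of spread within a library.

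CpG-dense stretches often overlap promoters and are kept largely free of methylation in most cells, while the DNA around them is methylated, so the shore is the zone in which one state gives way to the other. DNMT3A2 is the short isoform of DNMT3A that prevails in embryonic stem cells, DNMT3B1 is the full-length active isoform of DNMT3B, and both are de novo enzymes that methylate unmethylated DNA. DNMT1, the maintenance enzyme that copies methylation after replication, is missing here. SETD2 trimethylates lysine 36 of histone H3 over transcribed gene bodies, a mark that the PWWP domain of the DNMT3 enzymes can bind.

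As examples of promoter DNA in and beside shores, 6 promoter sequences from RefSeq (build GRCm38.p6) are printed 5′ to 3′, with every CpG in capitals. They do not stand for shores at large. All promoter windows placed on the site list held 1258 members, at a median CpG density of 35 against 18 for members outside. Each runs from 250 bases before to 50 bases after a transcription start. Their positions are in build mm9, the build of the files, and were found by matching the spacing of at least 10 CpGs to the deposited site list, so the letters between CpGs are those of the RefSeq build. The Fkbp7 window (chr2:76511106-76511405, minus strand) was chosen because it held the most shore CpGs, 17, at 1682 to 1910 bp from a stretch. The Ppp1r27 window (chr11:120412397-120412696, minus strand) had the highest DNMT3A2 level among 17 windows with at least 8 shore CpGs, all of them covered and the Foxd4 window (chr19:24975457-24975756, minus strand) the highest knockout level. The Tcp11 window (chr17:28217535-28217834, minus strand) crosses a stretch edge. The windows of Zrsr1 (chr11:22871755-22872054, plus strand) and of an inner start of Commd1 (chr11:22872817-22873116, minus strand) flank and overlap the stretch whose shore had the lowest knockout to DNMT3B1 ratio. Only 4 of the 10 Zrsr1 CpGs and 0 of the 17 Commd1 CpGs were shore sites.
Fkbp7: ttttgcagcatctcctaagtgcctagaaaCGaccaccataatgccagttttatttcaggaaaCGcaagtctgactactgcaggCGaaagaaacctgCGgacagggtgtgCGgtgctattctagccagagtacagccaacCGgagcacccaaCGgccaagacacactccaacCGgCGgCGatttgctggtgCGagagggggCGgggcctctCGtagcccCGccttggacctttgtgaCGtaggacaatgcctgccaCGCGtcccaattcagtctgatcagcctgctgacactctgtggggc
Ppp1r27: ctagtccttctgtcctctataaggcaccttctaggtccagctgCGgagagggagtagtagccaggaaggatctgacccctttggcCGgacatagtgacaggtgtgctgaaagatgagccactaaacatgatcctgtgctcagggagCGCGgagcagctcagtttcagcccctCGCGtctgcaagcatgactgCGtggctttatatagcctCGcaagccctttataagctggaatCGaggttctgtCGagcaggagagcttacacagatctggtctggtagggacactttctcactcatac
Foxd4: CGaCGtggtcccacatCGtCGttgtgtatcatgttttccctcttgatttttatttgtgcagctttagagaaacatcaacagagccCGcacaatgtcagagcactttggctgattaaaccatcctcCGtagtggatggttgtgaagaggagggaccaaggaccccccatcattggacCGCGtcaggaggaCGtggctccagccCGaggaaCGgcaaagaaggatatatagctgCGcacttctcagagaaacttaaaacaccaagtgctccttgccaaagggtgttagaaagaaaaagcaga
Tcp11: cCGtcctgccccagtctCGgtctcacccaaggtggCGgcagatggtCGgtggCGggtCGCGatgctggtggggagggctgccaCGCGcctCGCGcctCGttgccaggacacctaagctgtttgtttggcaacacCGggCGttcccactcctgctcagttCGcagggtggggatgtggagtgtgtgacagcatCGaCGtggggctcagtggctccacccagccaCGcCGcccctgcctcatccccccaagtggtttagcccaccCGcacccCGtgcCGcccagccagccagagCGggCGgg
Zrsr1: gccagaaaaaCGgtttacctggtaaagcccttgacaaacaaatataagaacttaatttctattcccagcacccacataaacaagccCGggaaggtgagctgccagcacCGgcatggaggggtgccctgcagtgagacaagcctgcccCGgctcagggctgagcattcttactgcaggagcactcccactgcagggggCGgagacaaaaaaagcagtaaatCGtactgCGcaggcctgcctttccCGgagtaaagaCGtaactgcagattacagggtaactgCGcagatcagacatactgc
Commd1: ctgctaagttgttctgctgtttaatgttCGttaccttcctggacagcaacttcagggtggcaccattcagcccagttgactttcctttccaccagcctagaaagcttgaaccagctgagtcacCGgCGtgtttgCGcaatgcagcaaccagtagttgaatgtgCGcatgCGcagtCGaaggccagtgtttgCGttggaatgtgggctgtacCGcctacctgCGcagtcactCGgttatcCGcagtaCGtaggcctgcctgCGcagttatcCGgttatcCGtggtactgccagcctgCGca

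Low methylation prevailed in the 17 windows: 12 had no methylated read at their shore CpGs in DNMT3A2, 11 in DNMT3B1 and 2 in the knockout. The knockout was read more deeply, at 21.2 reads per shore site in promoter windows against 13.9 in DNMT3A2 and 13.1 in DNMT3B1. Promoter windows had lower levels than other shore DNA. Over all of them 0.933%, 0.485% and 1.32% of reads were methylated (DNMT3A2, DNMT3B1, knockout), against 4.27%, 1.56% and 3.90% at members outside. These levels were not matched for CpG density, which was higher in the windows (median 35 against 18). Fkbp7 encodes a peptidyl-prolyl isomerase of the endoplasmic reticulum, and its 17 CpGs had 0 of 313 reads methylated in DNMT3A2, 2 of 257 in DNMT3B1 and 4 of 552 in the knockout. In the window of Ppp1r27, a regulatory subunit of protein phosphatase 1, all 10 CpGs were shore sites, and 37 of 326 reads (11.4%) were methylated in DNMT3A2, 4 of 192 (2.08%) in DNMT3B1 and 16 of 297 (5.39%) in the knockout. Within that window the methylated DNMT3A2 reads were unevenly placed. The CpG at position 120412485 had 14 of 45 reads methylated, and the next one at 120412503 had 8 of 43. Those at 120412610 and 120412652 had 0 of 21 and 0 of 16. Foxd4, a forkhead transcription factor gene, had 8 of 139 methylated reads in the knockout at its 10 shore CpGs, of which 7 of 14 fell on the single CpG at 24975566, against 0 of 130 in DNMT3A2 and 0 of 107 in DNMT3B1. Tcp11, a gene expressed in the testis, had 2 CpGs in the stretch and 12 shore CpGs in its window, with 0 of 199, 2 of 201 and 2 of 214 methylated reads over the 17 CpGs with coverage.

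Across all members the level, the share of reads called methylated, was 4.25% in DNMT3A2 (4.23% to 4.27%; single autosomes 3.90% to 4.60%), 1.56% in DNMT3B1 (1.55% to 1.57%; autosomes 1.40% to 1.74%) and 3.89% in the knockout (3.87% to 3.90%; autosomes 3.64% to 4.15%). These levels rested on 3142657, 3036429 and 5180900 reads, a mean coverage of 13.5, 13.1 and 22.3 per site. DNMT3B1 was the lowest of the 3 lines on all 19 autosomes, while the autosome ranges of DNMT3A2 and the knockout overlapped. The interiors of the stretches were far lower, at 0.209%, 0.153% and 0.462% in the same order of lines. Sites of density under 40 farther than 2000 bp from any stretch were higher, at 8.40%, 3.18% and 6.74%. The shore level was thus 20.3 times the interior level in DNMT3A2, 10.2 times in DNMT3B1 and 8.42 times in the knockout. The interior level holds unconverted cytosines as well as any methylation, which cannot be told apart with these counts.

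Shore sites were denser in CpGs than farther sites (median density 18 against 12), and the level depends on density. Each set of sites was therefore compared with farther sites of exactly the same CpG count, and the matched ratio is the number of methylated reads over the number expected at their level. It was 0.556 in DNMT3A2 (autosomes 0.505 to 0.597), 0.550 in DNMT3B1 (0.491 to 0.611) and 0.654 in the knockout (0.617 to 0.690). Every autosome lay below 1 in each line. The autosomes of the knockout did not overlap those of either other line. Left and right flanks of the stretches gave nearly the same matched ratios, 0.556 and 0.556 in DNMT3A2, 0.550 and 0.549 in DNMT3B1, and 0.653 and 0.654 in the knockout.

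The level rose with distance from the edge in all 3 lines. In the first 250 bp, where 9398 members lay, it was 1.03% in DNMT3A2 (0.978% to 1.09%), 0.411% in DNMT3B1 (0.376% to 0.448%) and 1.34% in the knockout (1.29% to 1.39%). From 750 to 1000 bp it had reached 4.02%, 1.50% and 3.92%, and in the outermost 250 bp of the shore 6.73%, 2.58% and 5.51%. Just outside the limit that defines a shore, from 2000 to 3000 bp, the levels were 7.01%, 2.69% and 5.67%. They went on rising more slowly, to 8.22%, 3.15% and 6.46% from 10000 to 20000 bp. On the other threshold, sites of density 40 to 59 within 2000 bp had 0.667%, 0.313% and 0.978%, below the 0.840%, 0.354% and 1.18% of members of density 35 to 39 in the first 250 bp.

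**Figure D1:**
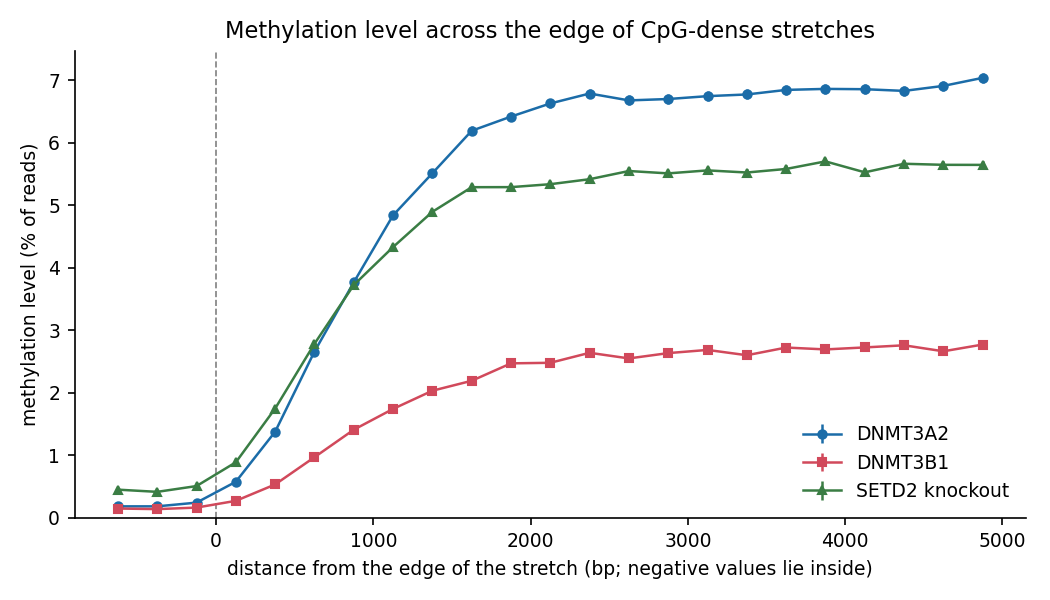
Methylation level (percent of reads, vertical axis) by distance from the stretch edge (bp, horizontal axis; negative values inside) for covered autosomal sites of any density; points are pooled levels in 250 bp steps and bars their 95% counting intervals. Levels inside stay under 1% in all 3 lines, climb most steeply between the edge and about 2000 bp and more slowly beyond, with DNMT3B1 lowest and the knockout line crossing below DNMT3A2 between 625 and 875 bp.

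The profile was also present at matched CpG density. The matched ratio in the first 250 bp was 0.267 in DNMT3A2 (0.252 to 0.281), 0.260 in DNMT3B1 (0.238 to 0.284) and 0.401 in the knockout (0.386 to 0.415). It was hardly different from 250 to 500 bp, at 0.259, 0.262 and 0.411. Beyond that it climbed to 0.803, 0.824 and 0.835 in the outermost 250 bp, with the knockout already at 0.839 in the step before, and there the value of each line lay inside the autosome ranges of the others. A matched ratio of 0.5 was crossed 891 bp from the edge in DNMT3A2, 875 bp in DNMT3B1 and 646 bp in the knockout. Density-matched levels were still reduced at 5000 to 10000 bp (0.910, 0.962 and 0.925), and from 10000 to 20000 bp they stood at 0.973, 1.00 and 0.970.

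**Figure D2:**
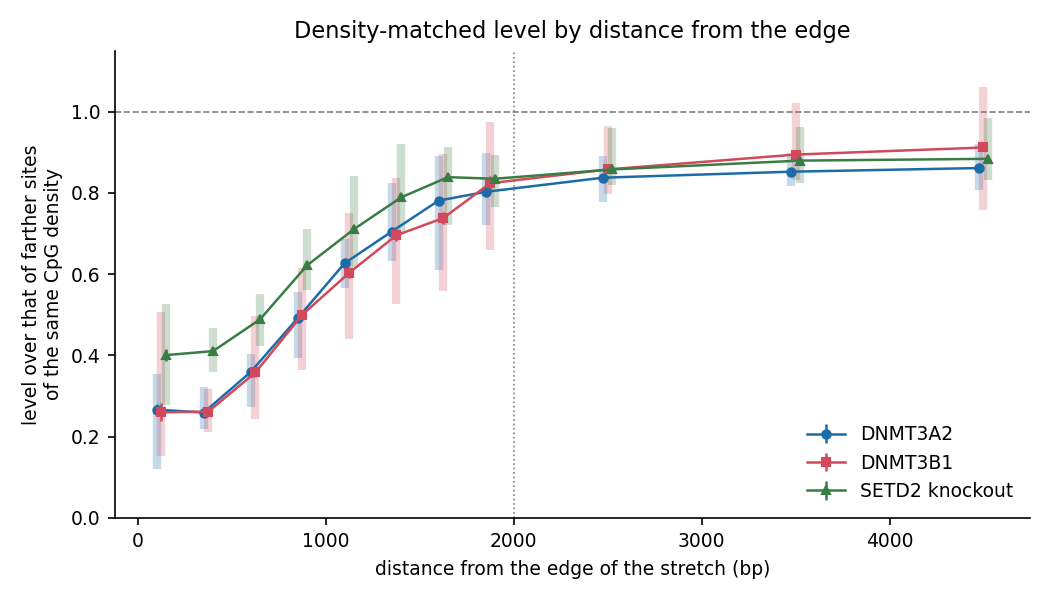
Density-matched ratio (level over that of farther sites with the same CpG count, vertical axis) by distance from the edge (bp); points are pooled values with 95% counting intervals, pale bars span the 19 autosomes, the dotted line is the 2000 bp limit of a shore and the dashed line a ratio of 1. The knockout starts at 0.401, above 0.267 and 0.260 in the other lines, and all 3 lines meet at 0.803 to 0.835 in the outermost 250 bp of the shore.

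The rise was present in each of the 7 bins of CpG density. Among members of density 15 to 19, the level went from 2.47% at 250 to 500 bp to 6.65% in the outermost 250 bp in DNMT3A2, from 0.748% to 2.65% in DNMT3B1 and from 2.80% to 5.69% in the knockout. The last step exceeded the first on all 19 autosomes in DNMT3A2 and in the knockout, and on 18 in DNMT3B1. In the densest bin, 35 to 39, it went from 0.840% to 2.59%, from 0.354% to 0.889% and from 1.18% to 2.20%, on 15, 12 and 13 of 19 autosomes. In the sparsest bin, 1 to 9, the first step with enough sites was 500 to 750 bp, and the rise was 1.60-fold in DNMT3A2, 2.13-fold in DNMT3B1 and 1.43-fold in the knockout. In none of the 7 bins and 3 lines did the last shore step reach the level of farther sites of that bin.

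**Figure D3:**
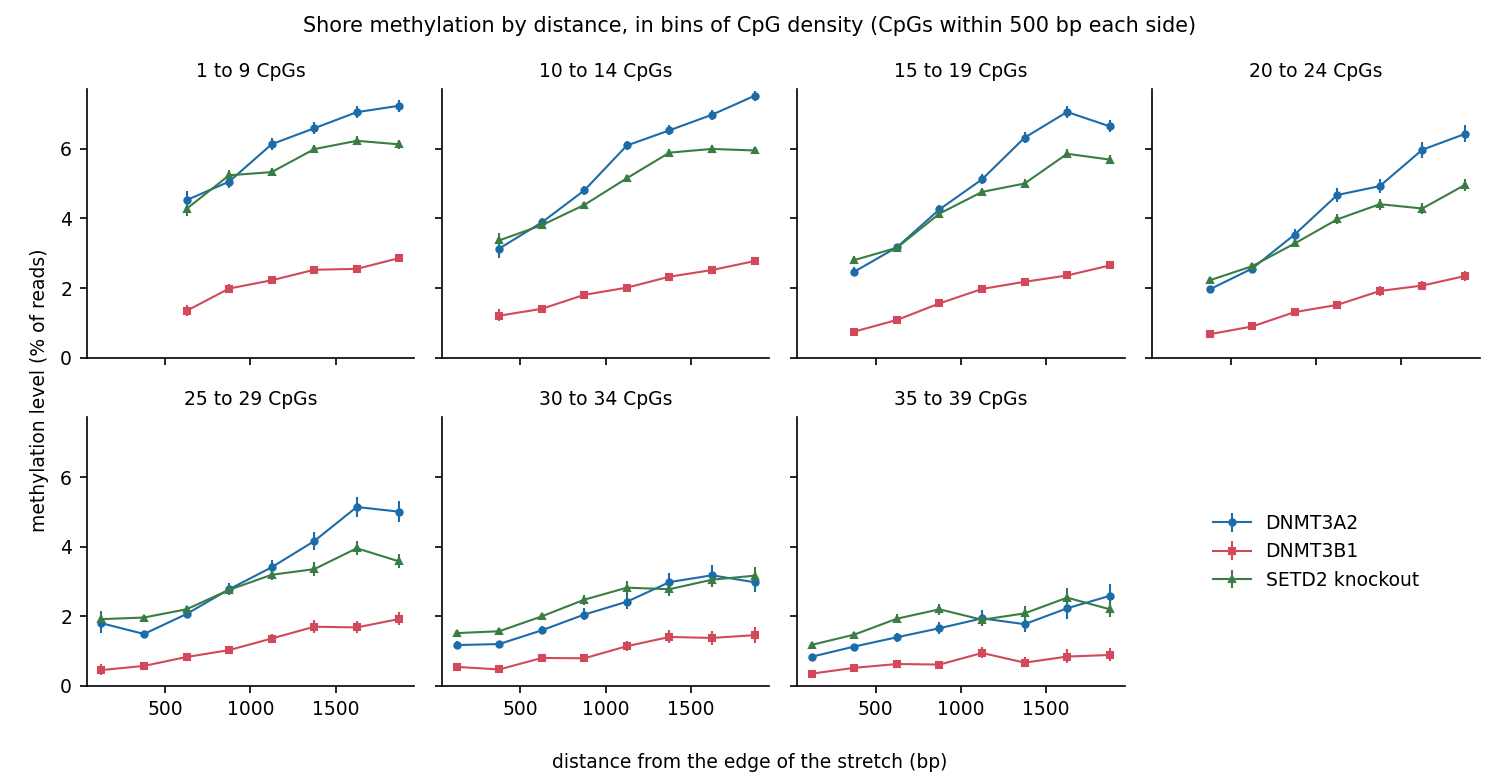
Methylation level (percent of reads) by distance from the stretch edge (bp) in 7 panels, 1 for each bin of CpG density (CpGs within 500 bp each side); points are pooled levels in 250 bp steps with 95% counting intervals. Each line ends higher than it starts in every panel, and levels are lowest in the panels of density 30 to 39.

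Standardised over the density bins that both steps share, the level in the first 250 bp was 0.361 times that in the outermost 250 bp in DNMT3A2 (0.327 to 0.398), 0.315 times in DNMT3B1 (0.270 to 0.367) and 0.517 times in the knockout (0.482 to 0.554). Single autosomes lay below 1 on 19, 19 and 18 of 19. The bins span 5 densities or more, which leaves part of the density difference between the steps in place. Only 3 bins, density 25 to 39, held enough sites in both steps, so these ratios leave out the members of density under 25. With density counted over 250 bp on each side for the matching, which brought in 5 bins of density 15 to 39, the ratios were lower, at 0.193, 0.183 and 0.293.

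The lines differed in how steep the rise was. On the log2 scale, the knockout to DNMT3B1 ratio was higher near the edge than at the far end of the shore by 0.71 (0.47 to 0.96, positive on 17 of 19 autosomes), and the knockout to DNMT3A2 ratio by 0.52 (0.35 to 0.69, positive on 16). The DNMT3B1 to DNMT3A2 ratio differed by -0.20 (-0.46 to 0.07, positive on 7), an interval that includes 0. With each line's interior level subtracted it was -0.46, and it was 0.04 with no coverage maximum and 0.04 without autosomes 6, 8 and 11. In plain levels, DNMT3B1 had 0.398 of the DNMT3A2 level in the first 250 bp and 0.384 in the last, with no autosome above 1 in any step. The knockout level was 3.26 times that of DNMT3B1 in the first 250 bp, 3.27 times from 250 to 500 bp and 2.14 times in the last step, against 2.12 farther out. Each of these steps had the knockout above DNMT3B1 on all 19 autosomes.

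The order of DNMT3A2 and the knockout changed within the shore. The knockout level was 1.30 times that of DNMT3A2 in the first 250 bp (1.22 to 1.38, above 1 on 17 of 19 autosomes) and 1.23 times from 250 to 500 bp (19 of 19). It was 1.03 times from 500 to 750 bp (13 of 19) and 0.820 times in the outermost 250 bp (0 of 19). The knockout also had the highest interior level, 0.462%. Once each line's interior level was subtracted, the knockout to DNMT3A2 ratio in the first 250 bp was 1.07, above 1 on 10 of 19 autosomes, and from 250 to 500 bp it was 1.08, above 1 on 15. After subtraction the matched ratios of the first 250 bp became 0.225 in DNMT3A2, 0.181 in DNMT3B1 and 0.305 in the knockout, and a ratio of 0.5 was crossed at 914, 936 and 718 bp.

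**Figure D4:**
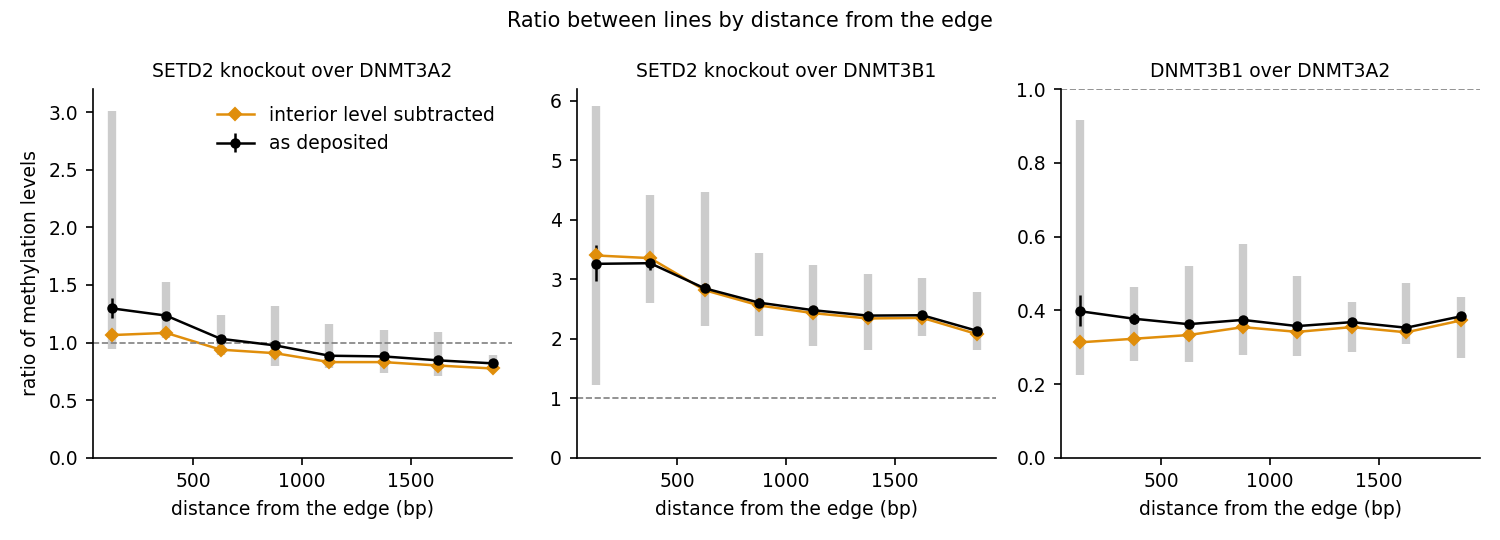
Ratio of the methylation levels of 2 lines (vertical axis, a different range in each panel) by distance from the edge (bp); black points are pooled ratios with 95% counting intervals, grey bars span the 19 autosomes, orange points are ratios after each line's own interior level was subtracted, and the dashed line is 1. The knockout to DNMT3A2 ratio falls from 1.30 to 0.820, the knockout to DNMT3B1 ratio from 3.26 to 2.14, and the DNMT3B1 to DNMT3A2 ratio stays between 0.353 and 0.398 without subtraction.

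Most shore CpGs showed no methylated read. In the first 250 bp this held for 92.8% of sites in DNMT3A2, 97.2% in DNMT3B1 and 86.1% in the knockout, which was read more deeply. With 5 reads drawn from each site, the expected shares were 96.1%, 98.5% and 94.6%, and in the outermost 250 bp they were 76.7%, 90.8% and 80.3%. Sites with at least 50% of reads methylated were rare: 1818 of the members (0.781%) in DNMT3A2, 568 (0.244%) in DNMT3B1 and 806 (0.346%) in the knockout, against 2.33%, 0.684% and 1.23% farther out. These shares were matched neither for CpG density nor for coverage, which was 22.3 reads per member in the knockout against 13.5 in DNMT3A2. The spacing of CpGs also went with the level. Members whose nearest CpG lay 2 to 5 bp away had a matched ratio of 0.479 in DNMT3B1 and 0.582 in the knockout, the lowest of 5 spacing classes in both lines, while DNMT3A2 had 0.550 there and 0.537 to 0.602 in the other classes. The farther sites were matched by CpG count and not by spacing. Whether spacing goes with the level in the same way outside shores was not tested.

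The shores of the largest and the smallest stretches had different matched ratios, and the difference was not the same in the inner and the outer kilobase. Next to stretches of 150 or more sites the matched ratio was 0.541 in DNMT3A2, 0.508 in DNMT3B1 and 0.636 in the knockout, compared with 0.575, 0.640 and 0.700 next to stretches of 10 to 29 sites. The counting intervals of the 2 size classes did not overlap in any line (0.533 to 0.550 against 0.564 to 0.587 in DNMT3A2). The autosome ranges did overlap in each line. From the smallest to the largest size class, the ratio fell at every step only in DNMT3B1. The classes in between had 0.565, 0.567 and 0.533 in DNMT3A2, and 0.653, 0.657 and 0.647 in the knockout. The inner kilobase was lower beside the large stretches in all 3 lines, at 0.324, 0.333 and 0.472 against 0.403, 0.456 and 0.554. In the outer kilobase DNMT3B1 was lower beside the large stretches (0.672 against 0.760), the knockout had 0.792 against 0.798 with overlapping intervals, and DNMT3A2 was higher beside them (0.744, 0.731 to 0.758, against 0.689, 0.673 to 0.704). The autosome ranges of these DNMT3A2 values overlapped (0.637 to 0.840 and 0.574 to 0.858). The DNMT3A2 classes in between had 0.717, 0.740 and 0.715 there, which is not a steady rise.

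The shores were next split by promoters. Of 14281 RefSeq promoter sequences with at least 10 CpGs, 12818 (89.8%) were located in the site list, and 12770 of 12772 neighbouring pairs stood in the RefSeq order. Some 4973 stretches had located promoters on 1 strand, 1120 on both strands, and 4476 had none. The class with none can also hold stretches whose promoters were not located. Near the edge, shores of stretches with a located promoter had the lower matched ratios: 0.211, 0.225 and 0.364 in the first 500 bp, against 0.348, 0.326 and 0.491 where none was located. At 1500 to 2000 bp the corresponding values were 0.770, 0.774 and 0.810 against 0.826, 0.792 and 0.879. The 1258 members inside a located promoter window had levels of 0.933%, 0.485% and 1.32%. Their matched ratios were 0.198, 0.266 and 0.348, against 0.557, 0.551 and 0.655 at members outside. Members outside windows in the first 250 bp were of similar density (median 36 against 35). They had levels of 1.04%, 0.410% and 1.34%, and the counting intervals overlapped those of the windows in each line. Leaving the window members out changed the first 250 bp little (matched ratios 0.268, 0.259 and 0.401).

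In stretches with promoters on 1 strand, the side on which the gene runs on was the less methylated one near the edge, in all 3 lines. In the first 500 bp, the matched ratio of the gene side was 0.708 times that of the upstream side in DNMT3A2 (0.669 to 0.749), 0.761 times in DNMT3B1 (0.695 to 0.834) and 0.739 times in the knockout (0.712 to 0.767). It exceeded 1 on 1, 2 and 1 of 18 autosomes. Of the 19 autosomes only these 18 had a value at any distance, and the reason was not tested. The median start lay 283 bp from the upstream edge and 551 bp from the gene-side edge.

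Farther along the shore the lines parted. At 1500 to 2000 bp the gene side was 1.12 times the upstream side in DNMT3B1 (1.08 to 1.17, above 1 on 11 of 18 autosomes), 0.985 times in DNMT3A2 (0.961 to 1.01, on 8) and 0.907 times in the knockout (0.888 to 0.926, on 4). In levels this was 2.52% against 2.27% in DNMT3B1, 6.55% against 6.61% in DNMT3A2 and 5.22% against 5.81% in the knockout. The log2 difference between the knockout and DNMT3B1 in this side ratio was -0.04 (-0.19 to 0.10) in the first 500 bp, with 10 of 18 autosomes positive, and -0.31 (-0.38 to -0.24) at 1500 to 2000 bp, with 2 of 18 positive. From 2000 to 5000 bp, beyond the shore, the side ratio was 1.13 in DNMT3B1, 1.04 in DNMT3A2 and 0.955 in the knockout, and from 5000 to 10000 bp 1.16, 1.04 and 0.981.

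**Figure D5:**
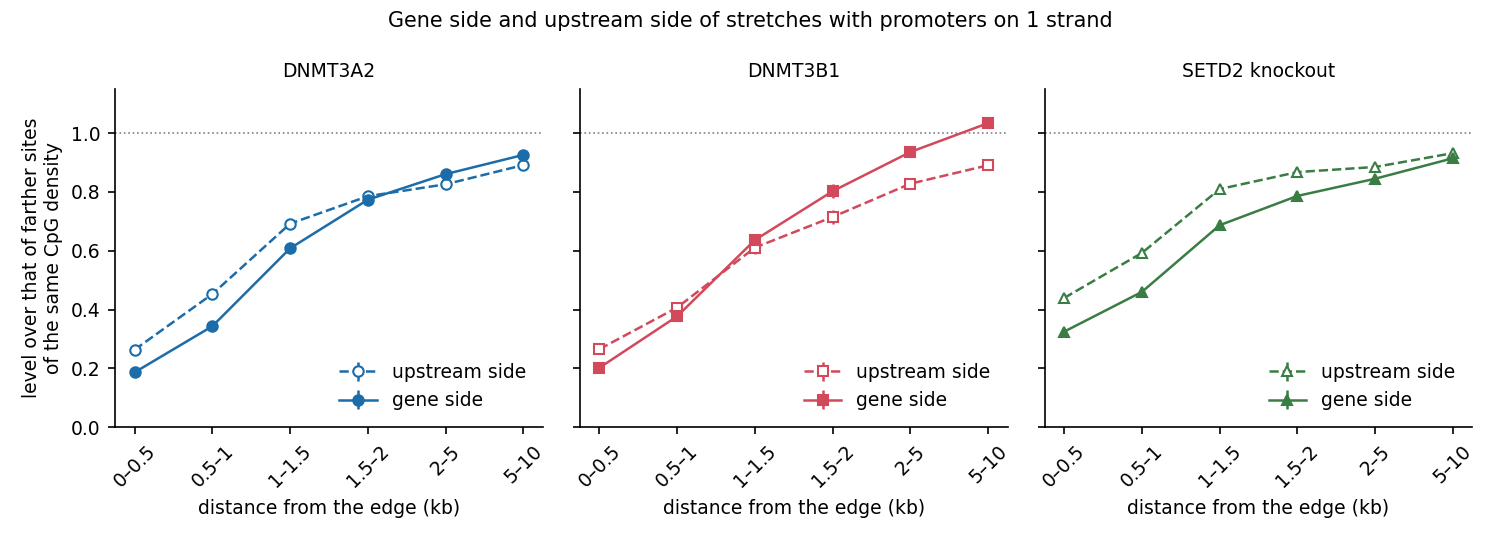
Density-matched ratio (vertical axis) by distance from the edge (kb) on the gene side (filled, solid) and the upstream side (open, dashed) of stretches with located promoters on 1 strand, 1 panel per line; bars are 95% counting intervals and the dotted line is a ratio of 1. The gene side starts below the upstream side in all lines, lies above it beyond the counting intervals from 1.5 kb in DNMT3B1 and from 2 kb in DNMT3A2, and stays below it in the knockout.

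Shores of single stretches could be compared for the 3835 stretches with at least 20 members and 300 reads in each line. Their levels had a median of 3.79% in DNMT3A2 (0% to 18.6%), 1.24% in DNMT3B1 (0% to 12.4%) and 3.69% in the knockout (0% to 14.5%). Tiles of 4 kb farther out, chosen by the same minimums, had medians of 8.57%, 2.90% and 6.51%. The median shore had 19 methylated reads in DNMT3A2, 6 in DNMT3B1 and 29 in the knockout, and 337 shores had none in DNMT3B1. Single values in that line are therefore coarse. Among stretches with enough reads at both ends, the outer kilobase exceeded the inner one in 81.7% of 2534 in DNMT3A2, 70.1% of 2435 in DNMT3B1 and 77.6% of 3529 in the knockout. These shares were not matched for CpG density, which is higher in the inner kilobase. They rest on a different set of stretches in each line and are not a comparison of lines.

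Relative to the ratio over all members, the DNMT3B1 level was at least 2-fold higher against DNMT3A2 in the shores of 810 stretches (21.1%; 10.8% of the tiles farther out) and at least 2-fold lower in 614 (16%; 18.8% of the tiles). The knockout was at least 2-fold higher against DNMT3B1 in 641 (16.7%; 16.6% of the tiles) and lower in 621 (16.2%; 10.3% of the tiles). Tiles were set against the ratio over all tiles, and counts under 3 methylated reads were set to 3. The upward share for DNMT3B1 and the downward share for the knockout were above those of the tiles. The minimum of 3 acts most on DNMT3B1, where 337 shores had no methylated read, against 32 in DNMT3A2 and 9 in the knockout. Raising DNMT3B1 counts moves the ratios in the direction of both excesses, and its part in them was not tested. The medians of shores and tiles were not equal either. For DNMT3B1 over DNMT3A2 the median log2 value was 0.075 in shores and -0.14 in tiles, and for the knockout over DNMT3B1 0.030 and 0.069. Tiles had about as many reads (medians of 449 against 458 for shores in DNMT3B1) at higher levels, so fewer methylated reads stood behind a shore than behind a tile, and the part of this in the difference was not tested. In plain levels, the knockout exceeded DNMT3A2 in 1773 shores (46.2%; 27.8% of the tiles), and DNMT3B1 exceeded DNMT3A2 in 409 (10.7%; 4.81% of the tiles). The knockout exceeded DNMT3B1 in 3512 (91.6%; 91.5% of the tiles). Levels of single shores went together between lines, with Pearson's r over 3835 shores of 0.55 for the knockout and DNMT3A2, 0.43 for DNMT3B1 and DNMT3A2 and 0.39 for the knockout and DNMT3B1. Within a line, the left and right shore of the same stretch had r of 0.19 in DNMT3A2 (2414 stretches), 0.12 in DNMT3B1 (2322) and 0.15 in the knockout (3401). Shores split instead into alternating 250 bp steps had r of 0.46 (2781), 0.28 (2710) and 0.32 (3664). Both splits rest on fewer reads per value than the whole shores compared between lines. These correlations share depth and CpG density and are given as descriptions.

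Among the extreme single shores, chosen by their values and therefore described without a test, the stretch at chr11:22872256-22872992 stood out. It carries Zrsr1, an imprinted gene for a splicing factor related to U2AF and located in an intron of Commd1, a regulator of copper balance. Its 27 members had 92 of 550 reads methylated in DNMT3A2 (16.7%), 74 of 595 in DNMT3B1 (12.4%) and 5 of 801 in the knockout (0.624%). All of the methylated DNMT3B1 reads came from the right flank, with 74 of 471 (15.7%) against 0 of 124 on the left. On that right flank DNMT3A2 had 89 of 447 (19.9%), and the knockout had 0 of 611. In the interior there were 0 of 1020, 0 of 1435 and 1 of 1680 methylated reads, and the printed Zrsr1 and Commd1 windows had 1 methylated read in all, in the knockout.

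High DNMT3B1 levels were also found beside the promoters of Wdr91 and Abcf3. Wdr91 encodes a protein of endosome maturation, and the shore of its stretch (chr6:34860467-34861028) had 44 of 419 methylated reads in DNMT3B1 (10.5%), 27 of 379 in DNMT3A2 (7.12%) and 33 of 589 in the knockout (5.60%). Abcf3, a member of the ATP-binding cassette family, had a shore at 10.4% in DNMT3B1 (48 of 460 reads), 3.18% in DNMT3A2 and 3.34% in the knockout. There too all DNMT3B1 reads that were methylated lay on 1 flank, the right, with 48 of 302 against 0 of 158 on the left.

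Other shores were close to bare in DNMT3B1 and not in the other lines. Beside Reck, which encodes a membrane-anchored inhibitor of matrix metalloproteinases (stretch chr4:43888107-43888992), 50 of 324 reads were methylated in DNMT3A2 (15.4%), 2 of 364 in DNMT3B1 (0.0666% to 1.97%) and 24 of 514 in the knockout (4.67%). The left flank carried 49 of the 50 methylated DNMT3A2 reads. Beside Arf5, a small GTPase of membrane traffic, the values were 84 of 668 (12.6%), 5 of 723 (0.692%) and 41 of 901 (4.55%). Beside Mturn, a gene of neural progenitor differentiation, they were 37 of 553 (6.69%), 2 of 521 (0.0465% to 1.38%) and 50 of 598 (8.36%), so that the knockout was the highest line there.

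The reverse pattern, DNMT3B1 above DNMT3A2, was seen beside Ogfod2 and Gm16001, beside Bcs1l and Zfp142, and beside Eif2ak3. Ogfod2 belongs to the 2-oxoglutarate-dependent oxygenases, and the shore of its stretch (chr5:124561859-124562773) had 35 of 506 reads methylated in DNMT3B1 (6.92%), 4 of 542 in DNMT3A2 (0.738%) and 31 of 661 in the knockout (4.69%). Beside Bcs1l, a chaperone of mitochondrial complex III, DNMT3B1 had 18 of 305 (5.90%), DNMT3A2 4 of 341 (1.17%) and the knockout 12 of 411 (2.92%). Beside Eif2ak3, the kinase PERK of the unfolded protein response, DNMT3B1 had 16 of 375 (4.27%), DNMT3A2 3 of 387 (0.160% to 2.25%) and the knockout 14 of 616 (2.27%). Knockout levels lay between the other 2 lines at each of these 3 stretches. These were chosen for the extreme ratio of those 2 lines, which makes a value in between likely for the knockout.

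Low knockout levels against DNMT3B1 were seen beside Slc46a3, a lysosomal transporter gene, with 3 of 622 reads in the knockout (0.0996% to 1.40%), 23 of 535 in DNMT3B1 (4.30%) and 12 of 529 in DNMT3A2 (2.27%). Beside Zbtb22, a zinc finger gene, the whole shore had 2 of 750 methylated reads in the knockout, 13 of 721 in DNMT3B1 (1.80%) and 9 of 672 in DNMT3A2 (1.34%). Its right flank had 0 of 516, 12 of 574 and 9 of 525, and its left flank 2 of 234, 1 of 147 and 0 of 147. The highest DNMT3A2 shore (stretch chr8:46108719-46109251, no located promoter) had 149 of 801 reads methylated (18.6%), and its interior was methylated as well, at 134 of 1149 (11.7%). Beside Ccdc13, which encodes a coiled-coil protein, DNMT3A2 had 54 of 320 (16.9%), DNMT3B1 13 of 458 (2.84%) and the knockout 38 of 449 (8.46%). The stretch with the most sites among those with enough reads (chr12:114014524-114022528, 502 sites, no located promoter) had shore levels of 9.19%, 1.40% and 6.36%. Its methylated DNMT3B1 reads lay only on the left flank, with 10 of 436 against 0 of 279 on the right. The interior had few reads, with 2 of 123 methylated in DNMT3A2, 8 of 103 in DNMT3B1 (7.77%) and 14 of 172 in the knockout (8.14%). In DNMT3B1 and the knockout it was thus above the shore.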

How the data were processed

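Per the file headers, the deposited tables hold, for each CpG site, the read coverage and the count of methylated reads, both as whole numbers. The 2 runs of the DNMT3A2 and of the DNMT3B1 line share 1 pair of columns. The 2 knockout files were identical, were used once, and list sites with at least 10 reads only, which covers 66.3% of shore sites and 44.5% of farther sites of density under 40. Build mm9 is named in the submitters' processing notes. For the aligner, the methylation caller and the treatment of duplicates: not given in the sources used here. Phage DNA was spiked in as a conversion control, per the labels' protocols, and was not analysed here.

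Reads were pooled over sites with numpy 2.4.6 and scipy 1.17.1 under Python 3.11.15. Intervals are exact (Clopper-Pearson) or delta-method intervals at 95% and cover counting error only. Near and far steps were standardised over density bins with at least 500 sites in both. Shores of single stretches were chosen by rule: the 4 highest levels in each line, the 4 highest and 4 lowest ratios of DNMT3B1 over DNMT3A2 and of the knockout over DNMT3B1, and the stretch with the most sites. The text names those with a located promoter and a few of the rest. Counts under 3 were set to 3 for ratios. Mean coverage of members on autosomes 6, 8 and 11 was raised, at 15.5 to 17.5 in DNMT3A2 against 11.6 to 13.3 on the others. The computations were tested on simulated data. The members and lists were chosen with earlier results of these data known.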

Additional observations from a re-analysis of the deposited data

Results flagged for a closer look

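The following values come from shore sites that the comparisons above leave out, and they are given because methylated reads were present there in each line. On the X chromosome, 686 shore sites with the coverage required had levels of 3.54% in DNMT3A2 (3.09% to 4.03%), 1.03% in DNMT3B1 (0.787% to 1.31%) and 3.35% in the knockout (3.01% to 3.72%). The 719 autosomal shore sites above a coverage maximum had 5.85% (5.60% to 6.11%), 2.00% (1.85% to 2.15%) and 4.05% (3.88% to 4.23%). The autosomal members, for comparison, had 4.25%, 1.56% and 3.89%. The X chromosome sites were lower than these in each line. The sites above a coverage maximum were higher, with overlapping intervals in the knockout. The interiors of autosomal stretches had 0.209%, 0.153% and 0.462%, at a median density of 85 against 21 for both flagged sets.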

How the results depend on the processing

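Of 130 alternative values, 93 stayed within the counting interval, or within 1.5 times a count, 37 did not, and none turned a direction whose interval excluded no change. The causes were not tested. Shores over farther sites are standardised over the density bins here, at 0.559, 0.551 and 0.654 as analysed. With each line's interior level subtracted, the first over the last step became 0.321, 0.233 and 0.429 (DNMT3A2, DNMT3B1, knockout), shores over farther sites 0.547, 0.526 and 0.625, and the near-minus-far log2 ratio of DNMT3B1 over DNMT3A2 -0.46. With density matched over 250 bp each side, first over last step became 0.193, 0.183 and 0.293, and shores over farther sites 0.522, 0.516 and 0.610. With stretches from density 50, first over last became 0.319 in DNMT3A2 and 0.477 in the knockout, and shores over farther sites 0.586, 0.578 and 0.672. Shores over farther sites became 0.567, 0.593 and 0.669 with no coverage maximum, 0.553, 0.542 and 0.648 as means of site levels, 0.563 in DNMT3A2 at a minimum of 1 read, 0.565 in DNMT3A2 and 0.660 in the knockout at a minimum of 10 reads, and 0.546 in DNMT3B1 with stretches of 30 or more sites. Without autosomes 6, 8 and 11, first over last became 0.479 in the knockout, over 2 density bins instead of 3, and shores over farther sites 0.555 in DNMT3A2. A minimum of 10 reads gave counts past 2-fold of 365 and 271 for DNMT3B1 over DNMT3A2 (higher, lower) and 285 and 297 for the knockout over DNMT3B1. Leaving out the 3 autosomes gave 386 lower and 387 higher, respectively. These 6 counts follow fewer stretches tested. The side ratio at 1500 to 2000 bp and the near-minus-far log2 ratio of the knockout over DNMT3A2 were put through these settings after seeing the data. The side ratio in DNMT3A2 became 1.02 at a minimum of 10 reads. The near-minus-far log2 ratio of DNMT3B1 over DNMT3A2, whose interval includes 0, had the opposite sign at 0.04 and 0.04 with no coverage maximum and without autosomes 6, 8 and 11. At a minimum of 10 reads no density bin held enough sites for the first and last steps, so no value was possible. Pooling and matching alternatives do not apply to the counts of stretches. No paired analysis was possible because each line has 1 library. The minimum of 1 read left the knockout at its own 10. In DNMT3B1 the median single shore had 6 methylated reads of 458, which limits single values there.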
